A study of Mus musculus with 15 samples.

Results

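NRL peaks called in mouse retina in the first postnatal days and missing from the lists of later ages are described here. They are the 659 of 8996 peaks in a quantitation table that overlap, by at least 1 bp, a peak of the P2 or P4 list (postnatal days 2 and 4) and no peak of the P10 or P28 list (postnatal days 10 and 28); they are called early peaks below. All libraries came from dissociated whole retina of C57BL/6J mice, with no other genotype or treatment, and age was the only factor. An antibody against NRL was used on 250000 cells per experiment. Of 15 libraries in the labels, the 8 with a column in the table were used, 2 at each of P2, P4, P10 and P28. The title of the series asks how NRL occupancy develops and what c-Jun does in early rod differentiation.

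NRL is a transcription factor of the Maf family, a branch of the basic leucine zipper (bZIP) proteins, and sets the rod fate in photoreceptor precursors. Maf proteins read a short core, TGCTGA, whereas AP-1 factors such as c-Jun read the related TGANTCA, and bZIP proteins can pair with one another. In CUT&RUN the antibody tethers a nuclease in intact cells, so that DNA beside the bound protein is cut out and sequenced. In the mouse retina the last rods are born in the first postnatal days and outer segments grow in the weeks that follow.

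Stretches from promoters show the sequence under early peaks. They are the parts of RefSeq promoter windows (GRCm38.p6, 250 bases before to 50 after a start site) that lie upstream of the start and inside an early peak, written 5′ to 3′ on the strand of the gene. Capitals mark the Maf core TGCTGA, the AP-1 sequence TGANTCA, the CRE core TGACGT or the CRX core TAATCC, searched on both strands, so TCAGCA is the Maf core on the other strand and GGATTA the CRX core on the other strand. Otx2 is the homeobox gene of photoreceptor and bipolar precursors, Id2 an inhibitor of proneural factors, and Mcm7 a subunit of the replicative helicase. Gm42808 is a predicted gene at the peak assigned to Grifin. Gm33979, at a peak assigned to D630013N20Rik, and the pluripotency factor gene Pou5f1 were added after their values were seen.
Otx2, chr14:48667509-48667605, minus strand: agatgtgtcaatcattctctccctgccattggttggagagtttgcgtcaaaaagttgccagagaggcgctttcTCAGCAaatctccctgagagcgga
Id2, chr12:25096093-25096297, minus strand: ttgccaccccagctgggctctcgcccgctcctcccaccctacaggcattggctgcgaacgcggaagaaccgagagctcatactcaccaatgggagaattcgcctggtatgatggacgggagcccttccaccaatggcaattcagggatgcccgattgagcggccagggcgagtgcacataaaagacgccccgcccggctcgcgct
Mcm7, chr5:138171267-138171385, minus strand: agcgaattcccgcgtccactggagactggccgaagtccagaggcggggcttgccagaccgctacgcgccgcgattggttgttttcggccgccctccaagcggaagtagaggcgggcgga
Gm42808, chr5:140549717-140549938, minus strand: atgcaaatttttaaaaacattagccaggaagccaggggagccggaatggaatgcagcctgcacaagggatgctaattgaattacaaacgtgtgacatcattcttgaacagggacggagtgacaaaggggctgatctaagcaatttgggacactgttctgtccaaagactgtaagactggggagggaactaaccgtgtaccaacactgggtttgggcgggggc
Gm33979, chr10:70740245-70740473, minus strand: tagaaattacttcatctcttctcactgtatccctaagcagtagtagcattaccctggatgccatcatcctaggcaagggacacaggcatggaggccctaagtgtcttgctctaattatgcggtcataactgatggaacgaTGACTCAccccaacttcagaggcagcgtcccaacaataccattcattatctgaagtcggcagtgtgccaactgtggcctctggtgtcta
Pou5f1, chr17:35508701-35508799, plus strand: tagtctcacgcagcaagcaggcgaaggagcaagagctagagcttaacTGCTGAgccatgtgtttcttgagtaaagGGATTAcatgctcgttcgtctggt
The Otx2 stretch holds 1 Maf core and no AP-1 letters, the Gm33979 stretch holds 1 AP-1 sequence, and the Pou5f1 stretch holds 1 Maf core and 1 CRX core. None of the 4 searched motifs is in the Id2, Mcm7 and Gm42808 stretches. These are matches of letters and show no bound site. The AP-1 sequence and the CRX core occur only in the stretches added afterwards, so those shown do not give the share of early peaks with a motif.

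Over all promoters, the windows under early peaks held the Maf core about as often as promoters at large. In all, 128 early peaks (19.4%) overlapped 153 windows of 147 genes. The Maf core was in 19.0% of these windows, in 16.1% of the 4796 windows under any NRL peak and in 19.5% of all 32851 windows. The AP-1 sequence was in 5.88, 3.94 and 7.81%, and the CRX core in 3.27, 6.55 and 7.06%, in the same order. The longer Maf core TGCTGAC, which contains the shorter one, was in 2.61, 3.90 and 4.67%. The CRE core was in 17, 17 and 7.51%, and the GC box GGGCGG in 71.2, 70.3 and 35.7%. The CCAAT box was in 43.8, 50.8 and 37.4%, and the E-box CANNTG in 68.0, 59.7 and 72.3%. The median GC content was 62.7% under early peaks, 62.0% under any peak and 52.7% over all windows. For GC boxes, CRE cores and GC content the promoters under early peaks were nearer to those under any NRL peak than to promoters at large. No sequence was read for the early peaks away from promoters.

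Most early peaks came from the P4 list. The P4 list alone held 473 of them (71.8%), the P2 list alone 105 (15.9%), and both lists 81 (12.3%). They made up 186 of 1221 peaks of the P2 list (15.2%) and 554 of 3161 of the P4 list (17.5%). The signal given by the authors had a median of 11.3 for early peaks and 13.6 for the other peaks of the P2 list, and of 10.7 against 15.1 in the P4 list. The rule removed 2735 peaks of an early list because a late peak overlapped them, by 95 bp or more in each case. Among the early peaks the nearest late peak was 32 bp away, 23 had one within 1000 bp, and the median distance was 91.4 kb. Those 23 had a median early minus late difference of 0.00 on the log2 scale, against 0.69 over the 659 and -0.51 over the removed peaks.

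Values are RPKM, that is reads divided by the width of the peak and the scale of its library, rebuilt from recovered reads. The libraries held 49430 to 227692 reads in all peaks, lowest in a P2 and highest in a P10 library, and reads in early peaks from 2163 to 7911. A median early peak had 4 to 10 reads in a P2 or P4 library and 3 to 5 in a P10 or P28 library, so single weak peaks are poorly measured. At the median early width of 270 bp, 3 reads equal 1.39 to 2.11 RPKM. The labels do not say whether replicates are separate animals, so p-values below measure the spread between these libraries, which may be technical. Intervals on reads cover counting error only, since PCR reads without molecular identifiers are not independent molecules.

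The level of early peaks was above that of all peaks at P2 and P4 and below it at P10 and P28, as the rule selects. Their median was 2.97 and 2.81 RPKM in the P2 libraries (replicates 3 and 4) and 3.98 and 5.26 at P4. It was 2.01 and 2.05 at P10 (replicates 1 and 4) and 1.40 and 1.57 at P28. Over all peaks the medians were 2.24, 2.09, 2.52, 4.48, 6.29, 6.09, 3.81 and 3.66 in that order. Early peaks took 5.24 to 7.43% of the reads in peaks in the P2 and P4 libraries and 1.56 to 2.34% in the P10 and P28 libraries. In whole retina, fewer cells with a bound site and less binding per cell cannot be told apart.

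**Figure D1:**
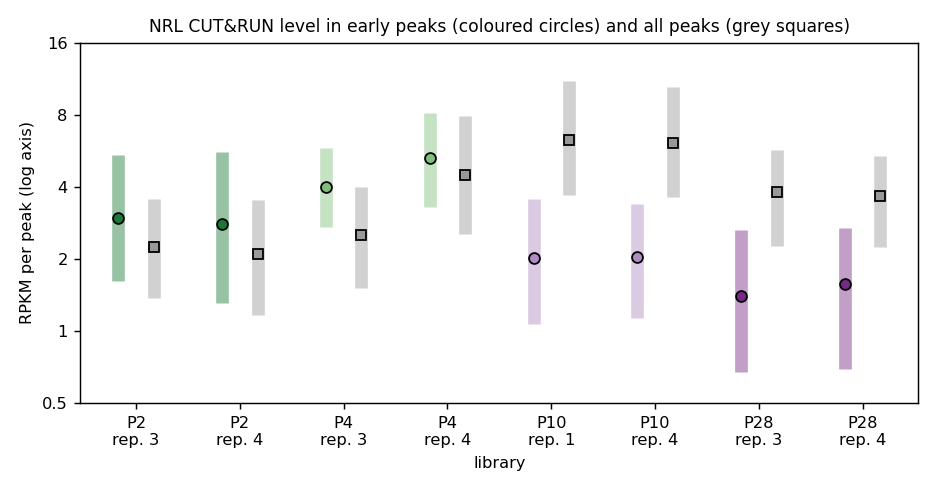
Median (symbol) and quartiles (bar) of RPKM per peak on a log axis in each of 8 libraries, for 659 early peaks (coloured circles) and all 8996 peaks (grey squares). The early peaks sit above all peaks at P2 and P4, and below them at P10 and P28, which is how they were chosen.

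Absence from the late lists did not mean absence of reads. The early minus late difference, the mean log2(RPKM + 1) of the 4 libraries of P2 and P4 minus that of the 4 libraries of P10 and P28, had a median of 0.69 (quartiles 0.24 and 1.28, range -1.22 to 3.41), against -0.64 over all peaks. The pseudocount of 1 makes such differences smaller for weak peaks than the ratio of reads. It was above 0 in 555 early peaks (84.2%), where 14% of all peaks were above 0. In 167 early peaks (25.3%) every P2 and P4 library exceeded every P10 and P28 library, against 2.09% of all peaks, and in 1 the order was the reverse, against 16.2% of all peaks. Because the lists of all ages chose the members, these figures are a description and carry no test. In 48 early peaks (7.28%) the P10 mean was at or above the higher of the P2 and P4 means, and in 28 (4.25%) the P28 mean was. Both P28 libraries were at 0 reads in 23 early peaks and both P10 libraries in 10. With each library centred on its median over all peaks the median difference of early peaks was 1.33 and that of all peaks 0.00.

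Peaks in both early lists were the strongest and the most reduced later. Their medians were 6.93 and 7.59 RPKM (P2), 5.82 and 8.55 (P4), 2.13 and 1.69 (P10), and 1.09 and 1.39 (P28), a median early minus late difference of 1.68. Peaks of the P2 list only had 4.66 and 4.94 at P2, already 2.37 and 3.14 at P4, and 1.24 to 1.51 at P10 and P28, with a difference of 0.85. Peaks of the P4 list only had 2.28 and 1.93 (P2), 4.07 and 5.29 (P4), 2.19 and 2.23 (P10), and 1.43 and 1.66 (P28), with a difference of 0.54. For this largest class the P2 and P10 medians were alike, and its level was highest at P4 in both libraries. The lists of the same ages define these classes, so their order of ages largely follows from the rule and is a description.

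A smaller share of early peaks than of all peaks lay at promoters. Position was not used by the rule. Within 1 kb of a start site lay 28.8% of them (Wilson 95% interval 25.5 to 32.4), against 56.8% of all peaks, 78.0% of the 667 peaks in all 4 lists and 71.6% of the 1052 peaks in the P10 and P28 lists only. Beyond 50 kb lay 27.6% (24.3 to 31.2), against 8.67% of all peaks. The promoter share was 12.3% (6.85 to 21.3) for peaks of both early lists, 21.0% (14.3 to 29.7) for the P2 list only and 33.4% (29.3 to 37.8) for the P4 list only. Introns held 32.2% of early peaks and 23.7% of all peaks, and distal intergenic DNA held 31.4 and 15.0%. The median distance to a start site was 13068 bp for early peaks and 126 bp for all peaks. The nearest gene was a long noncoding RNA for 11.4% of early peaks and 6.43% of all. Peaks are not replicates, so these shares were not tested.

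**Figure D2:**
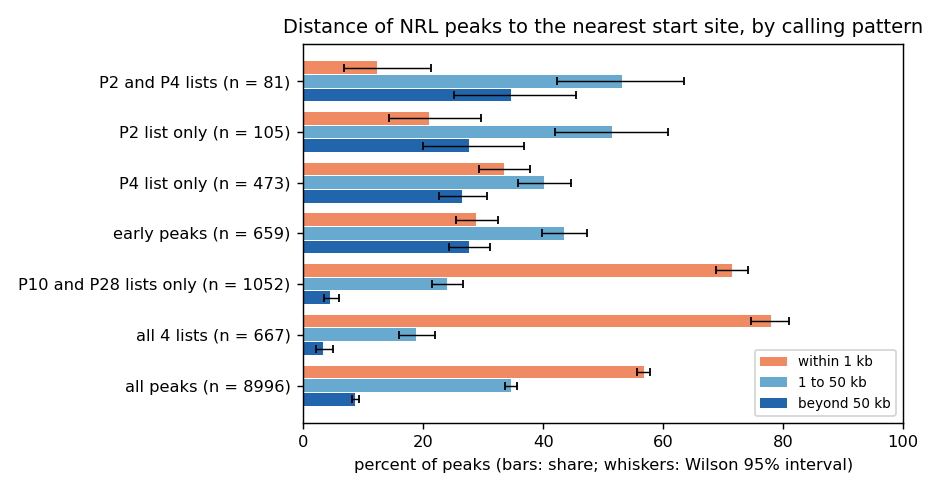
Percent of peaks (bars, with Wilson 95% intervals as whiskers) within 1 kb, 1 to 50 kb and beyond 50 kb of the nearest start site, by the lists in which the peaks were called. Early peaks have 28.8% within 1 kb, against 78.0% of peaks in all 4 lists and 56.8% of all peaks.

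In RPKM the early promoter peaks differed little between early and late ages, whereas with each library centred on its median nearly all were higher early. The median over all peaks was higher at P10 than at P2 and P4, and early peaks were not called at P10 or P28. The centred result is therefore partly fixed by the rule and by the peaks used for centring. The 190 within 1 kb had a median early minus late difference of 0.03, with 105 above 0 (55.3%) and 14 (7.37%) without overlap of libraries. Their median was 2.69 and 1.93 RPKM (P2), 3.40 and 4.45 (P4), 2.57 and 2.65 (P10), and 2.59 and 2.61 (P28), so the ages overlapped. The 287 peaks at 1 to 50 kb had a median of 0.86, with 275 above 0 (95.8%) and 81 (28.2%) without overlap. The 182 beyond 50 kb had 1.00, with 175 above 0 (96.2%) and 72 (39.6%) without overlap. Over all peaks the medians were -0.63, -0.74 and -0.37, the shares above 0 were 6.38, 20.6 and 37.6%, and those without overlap 0.392, 2.77 and 10.5%, so both shares rose with distance there too. With centring the medians of early peaks were 0.68, 1.51 and 1.64, and 187, 285 and 182 were above 0 (98.4, 99.3 and 100%). The medians of all peaks were then 0.02, -0.09 and 0.28.

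**Figure D3:**
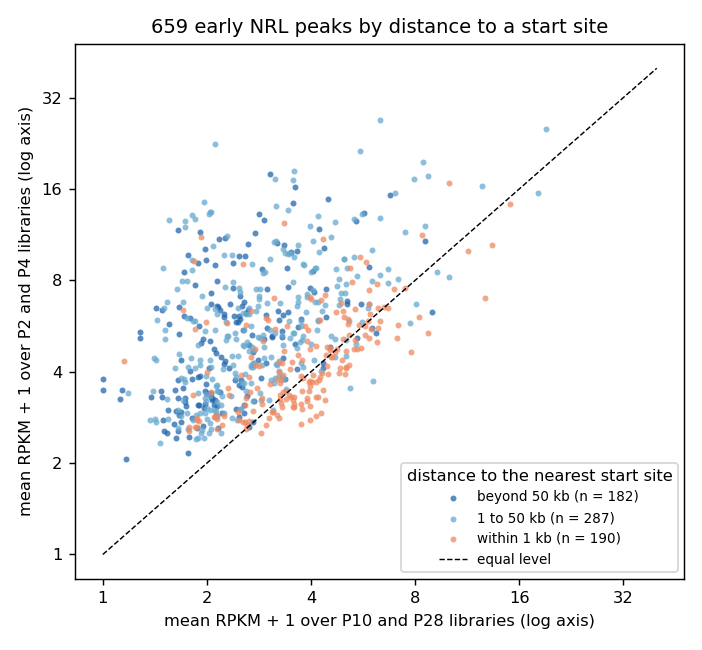
Mean RPKM + 1 over the 4 P2 and P4 libraries against the mean over the 4 P10 and P28 libraries, both log axes, for each of 659 early peaks, coloured by distance to the nearest start site; the dashed line is equal level. The peaks within 1 kb scatter on both sides of the line, with a median difference of 0.03 (0.68 with libraries centred), and most others lie above it.

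Of the 12 largest early minus late differences, all but 1 were at introns and intergenic sites. These 12 were required to have no overlap between early and late libraries and were ranked by this difference. Their ratios therefore tend to be raised by the choice. An intron of Slc6a17, a transporter of synaptic vesicles, had 8.67 and 19.3 RPKM (P2), 22.1 and 35.8 (P4), 1.28 and 2.53 (P10), and 0.627 and 0 (P28) (chromosome 3, 107496231 to 107496477). This peak had 147 reads early against 8 late, or 17.6-fold by scaled reads (95% counting interval 8.71 to 41.6). An intron of Sox6, a SoxD transcription factor gene (chromosome 7, 115866122 to 115866405), had 20.8 and 12.1 (P2), 7.15 and 8.55 (P4), 1.11 and 0.439 (P10), and 0.545 and 1.15 (P28). Its level was highest at P2 and its reads were 15.7-fold higher early (6.94 to 43.7). The sites assigned to Gm815 and Vash1, the gene of the angiogenesis inhibitor vasohibin, lay between genes. They had 93 against 4 reads (22.3-fold, 8.42 to 83.6) and 85 against 6 (13.6-fold, 5.99 to 38.1).

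Dusp16 and Dusp10 encode dual-specificity phosphatases of MAP kinases. The Dusp16 promoter peak (chromosome 6, 134760919 to 134761437) had 15.3 and 7.33 RPKM (P2), 8.07 and 9.63 (P4), 1.52 and 0.962 (P10), and 0.895 and 0.315 (P28). Early and late libraries did not overlap, as the choice of the 12 required, and scaled reads were 11.1-fold higher early (6.32 to 21.4). It was the only one of the 12 at a promoter. Another early promoter peak of Dusp16, named after its values were seen, had 7.36, 3.09, 4.95 and 3.71 early and 0.512, 2.03, 0.503 and 2.13 late. The Dusp10 intron peak, 31716 bp from its start site, had 16.1 and 2.79 (P2), 11.6 and 15.7 (P4), 0 and 0 (P10), and 1.13 and 1.80 (P28). Its P2 replicates differed widely, though both exceeded every late library, as the choice required. The early peak of another gene of the family, Dusp5, had a difference of -0.21.

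**Figure D4:**
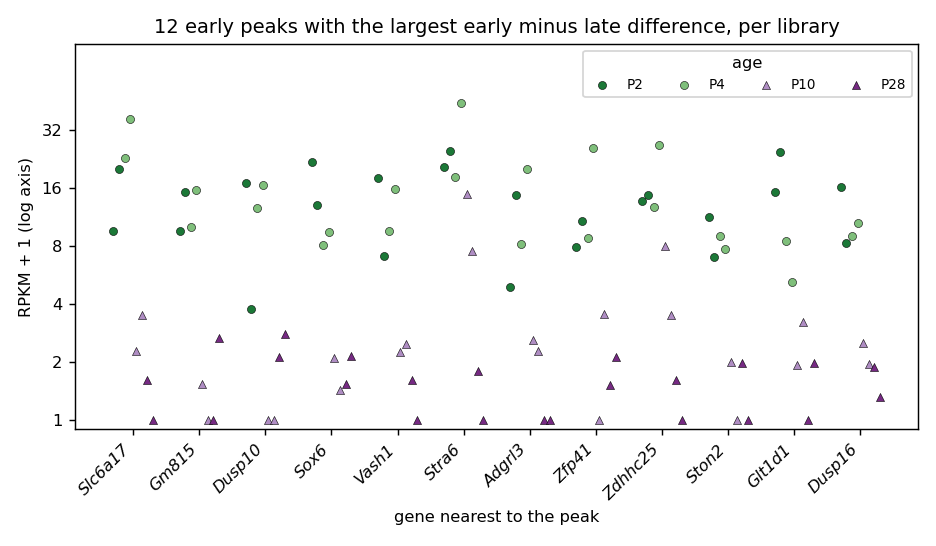
RPKM + 1 (log axis) in each of 8 libraries at the 12 early peaks with the largest early minus late difference, by nearest gene; circles are P2 and P4, triangles P10 and P28. No early library overlaps a late one, which the choice of these 12 required, and Stra6 and Zdhhc25 keep signal at P10.

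The other peaks of this group were near Stra6, the cell-surface retinol transporter gene (at -10334 bp, inside an intron of another gene), Adgrl3, which encodes an adhesion receptor of synapses, Zfp41, Zdhhc25, Ston2, an endocytic adaptor gene, and Glt1d1. Their early minus late differences were 2.61 to 2.75. The Stra6 peak had the highest early mean among the named peaks of both early lists, with 19.8 and 23.9 RPKM at P2 and 17.3 and 43.4 at P4, then 14.0 and 6.53 at P10 and 0.811 and 0 at P28. Its P10 level was lower than at P2 and P4 but far from 0. Ece1, the gene of the endothelin-converting enzyme, had an intron peak with 11.3, 15.0, 10.5 and 32.6 early and 2.36, 6.07, 0.580 and 1.23 late. A further early peak of Ece1, noted after its values were seen, carried 208 reads early and 27 late. Grifin, a lens galectin-related gene, was the nearest protein-coding gene to a site with 17, 16.3, 6.29 and 10.9 early and 2.13, 3.37, 3.49 and 0.737 late, with scaled reads 4.92-fold higher early (2.81 to 9.22). Mroh3 had 29.8 RPKM in P4 replicate 4 and 14.6 in P10 replicate 4, and its ages overlapped.

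Ranked instead by mean RPKM over the P10 and P28 libraries, the 6 highest early peaks were near Tor1b, Col27a1, Otx2, Kif21b, Vwce and Pinx1. This ranking took 1 peak per protein-coding gene within 50 kb, and these are not the lowest early minus late differences. The Otx2 promoter peak, whose sequence stands above, had 6.78 and 1.46 RPKM (P2), 19.5 and 25.3 (P4), 9.70 and 30.7 (P10), and 7.15 and 8.82 (P28). It was called at P4 and at no other age, yet its P4 and P10 values overlapped, with 51 reads early and 53 late (0.923-fold, 0.616 to 1.38). The promoter of Kif21b, a kinesin gene, had 5.73, 3.84, 5.77 and 8.65 early and 15.9, 15.8, 8.61 and 6.61 late, a ratio of 0.510 (0.326 to 0.784). Pinx1, a telomerase inhibitor gene, had 9.45, 12.7, 4.23 and 9.52 early and 18.4, 3.12, 5.16 and 15.0 late. Of the other 3, Tor1b had 6.56, 35.7, 14.6 and 40.2 RPKM early, 32.8 and 29.9 at P10 and 3.23 and 6.82 at P28. All of them fell from P10 to P28, with 43 reads against 6 at Tor1b, 48 against 11 at Col27a1 and 32 against 4 at Vwce (limma, adjusted p = 0.0125, 0.0315 and 0.00425; with centring 0.0554, 0.107 and 0.0158). At each of these 3 both P10 values lay between the P4 values.

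The early peaks were spread over 626 genes by nearest start site. Of these, 599 had 1 early peak, 24 had 2 and 3 had 3 or more, and at 402 (64.2%) every peak of the gene in the table was early. Most of these 402 genes had only 1 peak in the table, so this share largely counts such genes. Zfp608, a zinc finger gene, had 6 peaks, all of them early, and 4 of these lay within 48.7 kb. Another was assigned to it from -526956 bp. All 6 are included below. The values of the 6 ran from 1.92 to 12 RPKM at P2 and P4 and from 0 to 4.27 at P10 and P28. Early and late libraries did not overlap at 4 of the 6, and overlapped at the promoter and at the peak 66907 bp from the start. The peak at -17680 bp had 6.35 and 7.37 RPKM at P2 and 2.46 and 3.32 at P4, and that at -48451 bp had 6.00 and 9.97, then 3.02 and 4.08. The peak at -5061 bp was highest at P4, with 7.65 and 12 against 5.56 and 6.88 at P2. The first 2 are in the P2 list only and the last in the P4 list only, so their order of P2 and P4 follows from the rule.

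**Figure D5:**
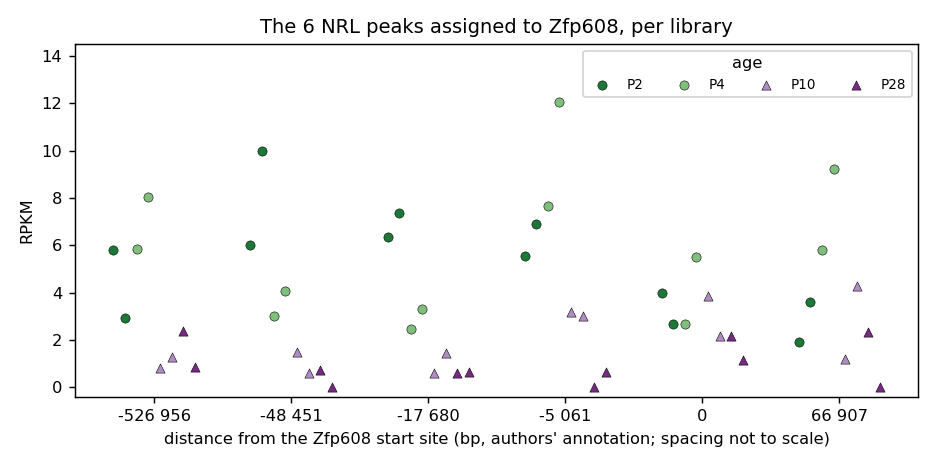
RPKM in each library at the 6 peaks assigned to Zfp608, ordered by their distance from its start site (spacing not to scale); circles are P2 and P4, triangles P10 and P28. The peaks at -48451 and -17680 bp are highest at P2, and the promoter peak at 0 shows overlap of ages.

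Tle1, which encodes a Groucho corepressor, had 3 early peaks among 4. The one 70764 bp from its start had 3.38, 4.54, 6.06 and 8.10 RPKM early and 0.941, 2.23, 0.462 and 0.977 late, without overlap, and the one 355263 bp away was also without overlap. The third early peak, in an exon, overlapped. The noncoding gene 4930405L22Rik had 3 early peaks of 4, with differences of 1.37, 0.14 and 1.02. They lay far from its start, at -80831, -100786 and -319364 bp in that order.

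Rod genes had no early peak. In a list of 35 rod genes, covering phototransduction and outer segments, 31 had an NRL peak in the table and 0 had an early one, whereas 626 of all 6860 genes with a peak (9.13%) did. Of 20 photoreceptor transcription factors, 16 had a peak and 1, Otx2, an early peak. None of the 6 cone genes with a peak had an early one. Of the bipolar markers 2 of 6 did (Otx2 and Irx6), of amacrine, horizontal and ganglion cell markers 1 of 5 (Nefl), and of lens markers 0 of 1. Müller glia and microglia with vessels had no marker with any peak, and the only pigment epithelium marker with a peak, the pigment cell factor gene Mitf, had an early one, in an intron at -2857 bp. The part of other cell types in these peaks was not tested.

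Progenitor and neurogenic genes had 6 with an early peak among 19 with any peak (31.6%, against 9.13% of all genes with a peak). Their median difference was 0.80, and this small count was not tested. Among them were the Notch receptor gene Notch3, the Notch ligand gene Jag1, the Wnt antagonist gene Sfrp2, Id2 and the zinc finger gene Zeb2. The Id2 promoter had 5.42, 4.09, 4.10 and 6.65 early and 5.65, 2.24, 3.89 and 4.11 late, which overlapped, with reads 1.32-fold higher early (0.800 to 2.21). Notch3 had 1.2 and 1.2 at P2 and 4.02 and 4.07 at P4, then 1.5, 1.58, 1.47 and 0.

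In the bZIP list, 3 of 28 genes with a peak had an early one (10.7%, against 9.13% of all genes with a peak). The counts in these lists are small and were not tested. They were Maf, a Maf-family gene, Cebpa, a C/EBP gene, and Cebpz, with a median of 0.90. Cebpz was listed for its name and encodes no leucine zipper, and without it the count was 2 of 27, with a median of 1.33. The site assigned to Cebpa had 6.27, 7.57, 6.32 and 14.9 RPKM early and 6.27, 1.86, 0 and 1.63 late. No gene of a Jun or Fos protein was among them. The cell cycle list had 2 of 26 (7.69%), both promoters with a difference near 0 (Ccna2, a cyclin A gene, 0.07, and Mcm7, 0.00). Chromatin regulators had 4 of 24 (16.7%), namely Suz12, Jarid2, Arid1a and the deacetylase gene Hdac1, with a median of 0.73. Ribosomal proteins had 3 of 24 (12.5%), namely Rpl18, Rps24 and Rps29, with a median of 0.80. Axon guidance had 3 of 21 (14.3%), namely Robo2, Efna5 and the reelin receptor gene Lrp8, with a median of 0.67. Wnt, BMP, TGF-beta, hedgehog, FGF and Hippo signalling had 3 of 21 (14.3%), namely Apc, Fgf9 and Tead1, with a median of 1.22. The Tead1 intron site, near the gene of a Hippo pathway factor, had 7.43, 5.14, 4.06 and 4.21 early and 1.94, 2.45, 0.381 and 1.61 late. Histone genes named with H and a cluster number, a list added after values were seen, had 4 of 20 (20%). These were H2bc3, H3c2, H4c6 and H4c8, each at the promoter. Hist1h2al, named otherwise, also had 1 early peak and is not counted.

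P4 was compared with P2 and P28 with P10 with limma, adjusted by the Benjamini-Hochberg method over all 8996 peaks, with all 8 libraries in 1 fit. No early peak passed in P4 against P2 (0 of 659, against 0% of all peaks higher or lower), and the smallest adjusted p was 0.056 (limma). At an unadjusted p under 0.05, 171 were higher (25.9%, against 14.4% of all peaks) and 30 lower (4.55%, against 0.778%). The early peaks were selected on NRL peak signal at P2 and P4, through the lists of the same ages that are compared here. Peaks chosen by the P4 list alone (473) tend to be higher at P4, and those chosen by the P2 list alone (105) lower. The shares in both directions and their contrast with all peaks, with or without centring, are therefore partly set by the rule. They are a description. The median difference was 0.61, against 0.48 over all peaks, and 0.14 after centring each library. Centring also turned the unadjusted split, to 60 higher (9.10%, against 5.39% of all peaks) and 74 lower (11.2%, against 4.46%). Both centred shares rest on peaks chosen by the P2 and P4 lists and show no change of their own. The median difference of early peaks was 0.60 without P2 replicate 3 and 0.51 without P2 replicate 4. It was 0.78 without P4 replicate 3 and, at its lowest, 0.40 without P4 replicate 4. Over all peaks it was 0.50, 0.42, 0.84 and 0.16 in that order. With limma-voom on the reads of all 8 libraries 1 early peak passed (0.152%, against 0.0889% of all peaks).

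Between P10 and P28 the early peaks that changed mostly fell in RPKM, whereas more rose than fell once each library was centred on its median. The rule excludes the peaks of both late lists, so it limits the levels of early peaks at P10 and at P28. All peaks, also used for centring, include those called at P10. The contrast with all peaks and the centred split are therefore partly set by the rule. Of the 659, 49 fell (7.44%, against 20.7% of all peaks) and 5 rose (0.759%, against 1.29%), with a median of -0.29, against -0.69 over all peaks. With centring the split was 13 lower (1.97%, against 8.56% of all peaks) and 22 higher (3.34%, against 4.28%), with a median of 0.31 against -0.09 over all peaks, and 18 of the 54 calls passed again. At an unadjusted p under 0.05, 100 were lower (15.2%, against 33.9%) and 18 higher (2.73%, against 3.01%). Of the 49, 40 lay at 1 to 50 kb from a start site (13.9% of early peaks there, against 36.7% of all peaks there), 5 beyond (2.75%, against 33.2%) and 4 within 1 kb (2.11%, against 8.95%). Most of the 54 calls did not pass when 1 P10 library was left out, and the same held for the calls over all peaks. The median difference was -0.30 without P10 replicate 1 and -0.34 without P10 replicate 4. Only the sites near Nfu1, Pou5f1 and Adh6a passed in each of the 8 fits that left out 1 library.

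The falls with the lowest adjusted p were at sites near Nfu1, Pou5f1, Stra6 and Adh6a. A site assigned to Nfu1, a gene of iron-sulfur cluster assembly, lay at -9329 bp, in a 3′ UTR whose gene the annotation does not name. The site had 2.33 and 7.05 RPKM (P2), 12.9 and 19.8 (P4), 19.0 and 6.93 (P10), and 0 and 0 (P28). It fell by 3.65 ± 0.56 on the log2 scale (SE, limma, adjusted p = 0.000226), and with 19 reads at P10 and 0 at P28 it was at least 5.54-fold lower. The Pou5f1 promoter peak had 10.2 and 7.69 (P2), 18 and 27.4 (P4), 20.7 and 13.9 (P10), and 0 and 1.65 (P28), so P4 and P10 overlapped. It fell by 3.46 ± 0.57 (limma, adjusted p = 0.000393), with 24 reads against 1 (21.0-fold, 3.42 to 864). The Stra6 peak, given above, fell by 2.98 ± 0.58 (adjusted p = 0.00124, limma; 0.0511 without P10 replicate 1). The Adh6a site, in an intron of an alcohol dehydrogenase gene, fell by 2.40 ± 0.49 (limma, adjusted p = 0.00171).

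Other falls included those near Jag1 (8 reads at P10, 0 at P28), Mitf (28 against 5), the Zfp608 site at -5061 bp (11 against 1), Tle3 (25 against 3), the corepressor gene, and Zdhhc25. The Jag1 site had 1.55 and 1.56 RPKM (P2), 2.60 and 4.10 (P4), 2.58 and 2.05 (P10), and 0 and 0 (P28), and fell by 1.72 ± 0.45 (limma, adjusted p = 0.0088; 0.123 without P10 replicate 1). The sites near Jag1, Mitf, Tle3 and Zfp608 were named after their values were seen, and none of the 4 passed with centring (limma, adjusted p = 0.0860, 0.186, 0.0891 and 0.0885).

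The 5 that rose were near Myo10, 4930554I06Rik, H3c2, Gm10451 and Dld, and rested on few reads. The intron site of Myo10, an unconventional myosin gene, had 8.69, 9.84, 6.57 and 2.46 RPKM at P2 and P4, 0 in both P10 libraries, and 2.67 and 2.82 at P28, a rise of 1.91 ± 0.47 (limma, adjusted p = 0.00675; 0.0755 without P10 replicate 1). It had 4 reads at P28 and 0 at P10. The promoter of the histone gene H3c2 had 5.27 and 10.1 (P2), 1.45 and 3.26 (P4), 0.599 and 0.474 (P10), and 1.77 and 4.98 (P28), and rose by 1.41 ± 0.50 (limma, adjusted p = 0.0431; 0.379 without P28 replicate 4). Dld, a mitochondrial dehydrogenase gene, had 19 reads at P28 and 5 at P10 (4.34-fold, 1.57 to 14.9). All 5 passed with centring, and Myo10, H3c2 and Gm10451 did not with limma-voom on the reads (adjusted p = 0.0617, 0.0767 and 0.126).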

How the data were processed

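CUT&RUN with an anti-NRL antibody was done on whole retina, with nuclease cleavage for 30 min, per the labels' protocols. Tools listed in the submitters' processing notes, without their role, are MACS2 2.2.5, Bowtie2 2.3.5.1, Trimmomatic 0.38, bedtools 2.29.0, Picard 2.20.8 and SAMtools 1.9, with the mouse build GRCm38.p6. Another genome build, ASM584v2, is listed there too, also without its role. The deposited table holds RPKM, a unit inferred from the values. From each column to the next, the row whose width had divided the authors' values was shifted by 39; dividing this out gave read numbers within 0.001 of a whole number for 100% of values, and RPKM was rebuilt with each peak's own width. The signal and score of each peak list are the authors' deposited values and only describe or rank peaks. The other 7 of the 15 labelled libraries were not analysed here.

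The test was limma 3.58.1 (R 4.3.3) on log2(RPKM + 1) (trend and robust, all ages in 1 fit, 4 residual degrees of freedom, no filter), after tests on simulated data; a call is an adjusted p under 0.05. Read ratios have exact 95% intervals, and 0 reads are bounded from 3 reads. Matplotlib 3.10.9, SciPy 1.17.1, pandas 2.3.3 and NumPy 2.4.6 ran in Python 3.11.15. Place, distance and gene are the authors' annotation; promoter sequences are RefSeq's.

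The members, gene lists, motifs and tests were chosen with earlier results of these data known. Named peaks are, for 1 peak per protein-coding gene within 50 kb, the 12 largest early minus late differences without overlap and with 20 early reads or more, the 6 strongest in both early lists, the 6 highest late, up to 2 per gene list, up to 4 called in each direction in P28 against P10, and genes with 3 early peaks or more. Exceptions are named in the text. A result at 1 gene of the progenitor list is not reported here. Alternatives are in the closing section.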

Additional observations from a re-analysis of the deposited data

How the results depend on the processing

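The number of early peaks was 659 with an overlap of 50% of the shorter interval, 643 without those within 500 bp of a late peak, and 166 at or above the median score. The promoter share was 19.3% in those 166 and 33.2% with 3 kb in place of 1 kb. The median early minus late difference was 1.02 with a pseudocount of 0.1, 1.33 with libraries centred on their median and 1.40 in the 166, and ranged from 0.62 to 0.73 when 1 library was left out. For P4 against P2, limma called 0 early peaks, 1 with a pseudocount of 0.1, 1 with limma-voom, 5 with these 2 ages only and 0 to 51 when 1 library was left out. For P28 against P10 it called 54, 18 with a pseudocount of 0.1, 35 with centring, 19 with widths as deposited and 12 to 73 when 1 library was left out. Leaving out peaks under 10 reads removed none.

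The deviations of same-numbered libraries from the mean of their age had correlations from -0.013 to 0.085. With 2 libraries per age and few reads per peak, this cannot tell whether the numbers pair the samples. With a replicate block limma called 22 early peaks in P4 against P2 (3.34%, against 0.767% of all peaks). In P28 against P10 it called 14 (2.12%, against 4.80%). Early peaks were chosen by the lists of all ages, so these contrasts with all peaks are partly set by the rule. The causes of these changes in calls were not tested. Over 54 named peaks and 11 settings, 514 early minus late values moved by less than the replicate spread and 80 by more. With 3 to 10 reads in a median early peak, small changes at single peaks were not detectable at this depth.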
